A study of Rattus norvegicus with 8 samples.

Results

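The genes described here are 4 ionotropic glutamate receptor subunits of the rat hippocampus: Grin1, Grin2a and Grin2b, which encode the NMDA receptor subunits GluN1, GluN2A and GluN2B, and Gria1, which encodes the AMPA receptor subunit GluA1. They were chosen by name, as 4 of the 32623 genes in the deposited count matrix, and all 4 were among the 16867 genes that passed the filter on low counts. The matrix lists genes by Ensembl ID only. The pairing of symbol and ID (Grin1 with ENSRNOG00000011726, Grin2a with ENSRNOG00000033942, Grin2b with ENSRNOG00000008766, Gria1 with ENSRNOG00000045816) was given with the choice of members and could not be checked against the reference tables used here, which pair 0 entries with an Ensembl ID.

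RNA was sequenced from hippocampal tissue of 2 inbred strains at 32 weeks of age, the spontaneously hypertensive rat (SHR), bred for high blood pressure, and its usual control strain, the Wistar-Kyoto rat (WKY). There were 4 libraries per strain, and no treatment other than anaesthesia before dissection is stated for either group. Nothing in the labels states that each of the 8 libraries is a separate animal, so p-values measure only the spread between libraries, which may be technical. The strains are separate inbred lines that differ in more than blood pressure, so a difference between them cannot be assigned to hypertension.

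Most fast excitation in the hippocampus passes through AMPA receptors, and NMDA receptors, which open only when glutamate binds and the membrane is already depolarised, admit the calcium that starts long-term potentiation. Every NMDA receptor contains GluN1. The GluN2 subunits set its kinetics: GluN2B dominates early in development and gives slow decay, and GluN2A increases as synapses mature and gives faster decay. GluA1 is a main AMPA subunit of hippocampal pyramidal cells and is added to synapses during potentiation.

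The libraries held 45048841 to 49560687 counts in SHR and 53045139 to 53699673 in WKY, with no overlap, so depth and strain cannot be told apart. The members had 1011 to 31423 counts per library. Earlier work on these same data had found WKY replicate 4 to lie apart from the other WKY libraries, and the results are therefore given with and without it. Leaving it out also changed the number of genes called more than leaving out any other library. Over all 8 libraries edgeR's quasi-likelihood test called 6 of 16867 genes (0.0356%) at an adjusted p under 0.05, and without WKY replicate 4 it called 458 of 17029 (2.69%).

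None of the 4 subunits passed the test between the strains, over 8 libraries or without WKY replicate 4 (edgeR, 0 of 4 in each). At an unadjusted p under 0.05, which 12.1% of all genes had, there was 1 member over 8 libraries (Gria1), and without WKY replicate 4, where 17.2% of genes had one, there was also 1 (Grin2b). DESeq2 called 0 of the 4 over the 8 libraries, where it called 1.73% of genes, and 0 of the 4 without WKY replicate 4, where it called 6.43%. The fitted difference was towards higher levels in SHR for all 4, with a median log2 fold change of 0.29, against -0.0044 over all genes tested, of which 49.2% were higher in SHR. These 4 values are not independent, because some of the subunits rose and fell together from library to library, Grin2a and Gria1 most closely, as described below. In bulk tissue, more cells of one type and more RNA per cell cannot be told apart.

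**Figure D1:**
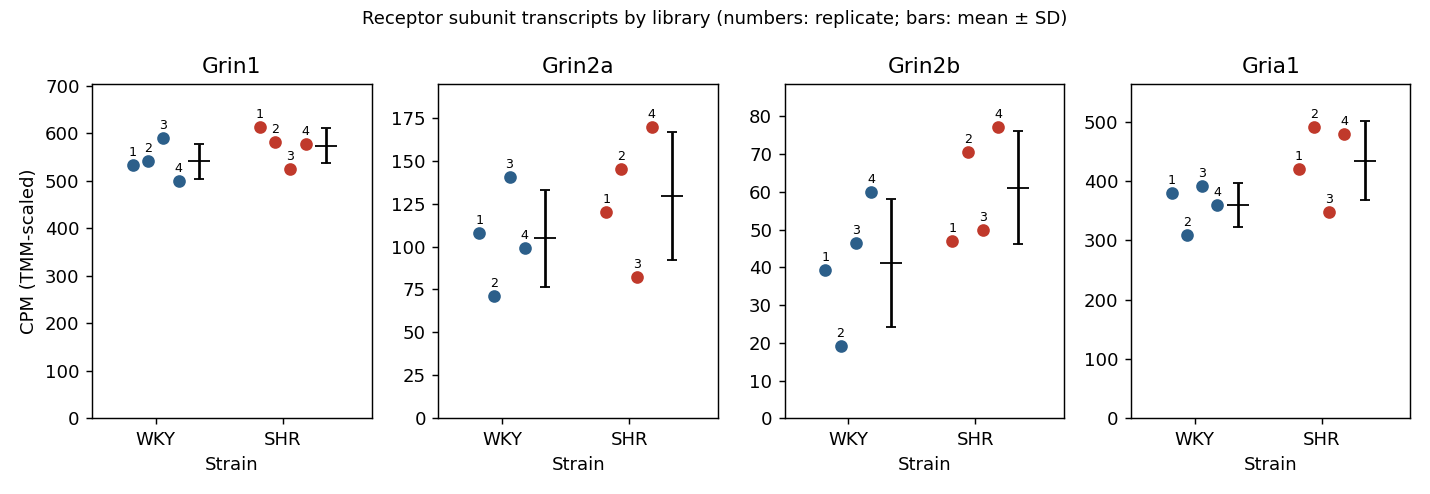
Level of each subunit transcript in scaled counts (CPM, y axis, from 0) in the WKY (blue) and SHR (red) libraries, with replicate numbers beside the points and the mean ± SD (n = 4) as bars. Grin1 sits in a narrow band from 500.4 to 613 CPM, and the strains overlap in all 4 panels.

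Grin1, the subunit that all NMDA receptors share, was the steadiest member. In counts scaled to a common library size by TMM (CPM), it was at 613, 582, 525 and 577 in SHR replicates 1 to 4 and at 533, 541, 590 and 500.4 in WKY replicates 1 to 4. The ranges overlapped, with SHR replicate 1 highest and WKY replicate 4 lowest, only 1.22-fold apart. Its mean CPM was 574 ± 36.5 over the 4 SHR libraries and 541 ± 37.1 over the 4 WKY libraries (SD). The log2 fold change of SHR over WKY was 0.085 ± 0.080 (SE), with a 95% interval from -0.094 to 0.26 (edgeR, adjusted p = 0.716). In fold terms that interval runs from 0.937 to 1.20, the narrowest of the 4 members. This small difference moved by over 1.5 times with single libraries: the log2 fold change was smaller on leaving out WKY replicate 4 (0.049) or SHR replicate 1 (0.055) and larger on leaving out SHR replicate 3 (0.14) or WKY replicate 3 (0.13), and none of these passed the test (edgeR, adjusted p from 0.473 to 0.844). The within-strain SD of its log2 CPM was 0.096, smaller than at all but 12.2% of the 13473 genes whose log2 CPM averaged 1 or more.

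The start region of Grin1 is shown because this gene is the only one of the 4 members matched in the RefSeq promoter table. Any link between these bases and the small spread of Grin1 was not tested. The first line below gives the 250 bases before its start site (GRCr8, chr3:28528755-28529004, minus strand), and the second the last 30 bases of the table's window, which lie after the start site (GRCr8, chr3:28528705-28528734, minus strand). Both read 5′ to 3′ along the gene. Capitals mark matches, on either strand, to TGACG (the half-site of the cAMP response element) in the first line and to GGGCGG (the GC box) in the second.
Grin1 upstream: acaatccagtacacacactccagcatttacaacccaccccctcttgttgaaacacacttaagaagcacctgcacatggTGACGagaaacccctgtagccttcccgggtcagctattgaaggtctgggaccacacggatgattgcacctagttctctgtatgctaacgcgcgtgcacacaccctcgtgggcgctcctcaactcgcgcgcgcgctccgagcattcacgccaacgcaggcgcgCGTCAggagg
Grin1 downstream site: aggaagcggGGGCGGtgggaggggtagaac
The whole window of 300 bases was 59.7% G or C and held 25 CpG dinucleotides, against medians of 51.7% and 7 over the 33469 promoter windows of that length in the table. GGGCGG occurred 1 time in the Grin1 window, after the start site, and in 33.1% of all windows. TGACG occurred 3 times in it, 2 of them before the start site, and in 21.2% of all windows. TATAAA, the core of the TATA box, occurred 0 times in the Grin1 window and in 14.2% of all windows. The motifs do not overlap one another, and a match describes letters only, not a bound site.

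Grin2a, the subunit that increases as synapses mature, varied widely within each strain. It was at 120 CPM in SHR replicate 1, 145 in SHR replicate 2, 82.3 in SHR replicate 3 and 170 in SHR replicate 4. In WKY replicates 1 to 4 it was at 108, 71.5, 141 and 99.2 CPM. SHR replicates 4 and 2 were above every WKY library, but SHR replicate 3 was below all WKY libraries except replicate 2. The SHR libraries averaged 129 ± 37.2 CPM and the WKY libraries 105 ± 28.4 CPM (SD, n = 4 and 4), a log2 fold change of 0.30 ± 0.23 (SE; edgeR, adjusted p = 0.640). The 95% interval, from 0.862-fold to 1.77-fold, includes both lower and higher levels in SHR. The fitted log2 difference was smaller on leaving out WKY replicate 2 (0.16) or SHR replicate 4 (0.15) and larger on leaving out SHR replicate 3 (0.48) or WKY replicate 3 (0.48). Single libraries thus moved it by over 1.5 times, and none of these passed the test (edgeR, adjusted p from 0.327 to 0.913). Without WKY replicate 4 it was 0.28 ± 0.26 (SE; edgeR, adjusted p = 0.638).

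Grin2b, the subunit of slower-decaying NMDA receptors, had the largest fitted difference of the 4 and also the largest spread. Its level was 46.9, 70.6, 49.8 and 77.1 CPM in SHR replicates 1 to 4. In WKY replicates 1 to 4 it was 39.3, 19.2, 46.4 and 59.9 CPM. WKY replicate 2 was the lowest library, and WKY replicate 4 lay among the SHR libraries, above SHR replicates 1 and 3. The SHR libraries averaged 61.1 ± 15.0 CPM and the WKY libraries 41.2 ± 17.0 CPM (SD, n = 4 and 4). The log2 fold change was 0.57 ± 0.30 (SE), or 1.48-fold, with a 95% interval from 0.941-fold to 2.34-fold (edgeR, adjusted p = 0.482). This difference did not pass the test.

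The 2 WKY libraries at the ends of its range moved the Grin2b estimate in opposite directions. With WKY replicate 4 left out, the estimate was a log2 fold change of 0.81 ± 0.28 (SE), or 1.75-fold, with an unadjusted p of 0.0166 (edgeR, adjusted p = 0.173). The ranges then no longer overlapped, although only just, with the lowest SHR library at 46.9 CPM and the highest remaining WKY library at 46.4 CPM. Such a separation was found at 17.2% of all genes in those 7 libraries, and at 6.72% in all 8. The 17.2% was counted after scaling the 7 libraries anew, whereas the Grin2b values carry the scaling over all 8. Whether Grin2b stayed separate on the new scaling was not checked. Without WKY replicate 2 instead, the log2 fold change fell to 0.34 ± 0.20 (SE; edgeR, adjusted p = 0.753). Without both it was 0.51 ± 0.21 (SE), with WKY then 2 libraries (edgeR, adjusted p = 0.412).

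Gria1, the AMPA receptor subunit, was at 420, 490, 347 and 480 CPM in SHR replicates 1 to 4. In WKY replicates 1 to 4 it was at 380, 308, 391 and 360 CPM. SHR replicates 1, 2 and 4 were above every WKY library, and SHR replicate 3, the deepest SHR library at 49560687 counts, was above WKY replicate 2 only. The SHR libraries averaged 434 ± 65.8 CPM and the WKY libraries 360 ± 36.5 CPM (SD, n = 4 and 4). The log2 fold change was 0.27 ± 0.12 (SE), or 1.21-fold, with a 95% interval from 1.004-fold to 1.454-fold. Its unadjusted p was 0.0462, but 1926th in order among 16867 genes, and it did not pass after adjustment (edgeR, adjusted p = 0.404). Unlike Grin2b, Gria1 gave the same estimate without WKY replicate 4, at 0.27 ± 0.13 (SE; edgeR, adjusted p = 0.326). Other single libraries did move it. The log2 fold change was larger without SHR replicate 3 (0.38; edgeR, unadjusted p = 0.00416, adjusted p = 0.202). It was smaller without SHR replicate 2 (0.22), SHR replicate 4 (0.22) or WKY replicate 2 (0.21), with an unadjusted p of 0.126 for each (edgeR, adjusted p from 0.662 to 0.749). The lowest adjusted p that any of the alternatives gave for Gria1 was 0.0803, without WKY replicate 4 and SHR replicate 3.

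**Figure D2:**
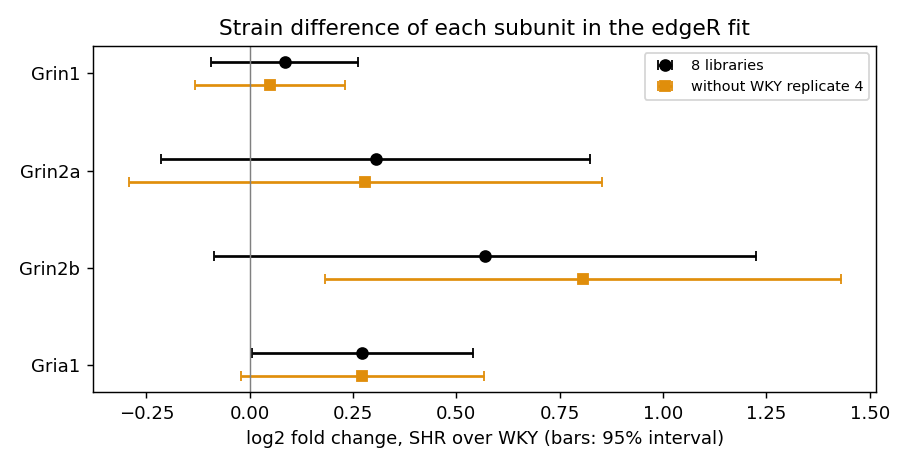
Log2 fold change of SHR over WKY (x axis) for each subunit (y axis) in the edgeR fit of all 8 libraries (black circles) and without WKY replicate 4 (orange squares), with 95% intervals as bars. All 8 points lie to the right of 0, the Grin1 intervals are the narrowest, and the Grin2b point moves from 0.57 to 0.81.

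The subunits differed in how much they varied within the strains. On the log2 CPM scale the pooled within-strain SD was 0.096 for Grin1, 0.19 for Gria1, 0.43 for Grin2a and 0.56 for Grin2b, against a median of 0.18 over the 13473 genes. Grin2a was thus more variable than 91.6% of those genes and Grin2b than 95.8%, while Gria1 stood near the middle, above 56.2%. The biological coefficient of variation from edgeR was 0.235 for Grin2a and 0.293 for Grin2b, against 0.124 and 0.137 on the trend for genes of like abundance. For Grin1 it was 0.098 against 0.132, and for Gria1 0.132 against 0.131. Both GluN2 subunits were above the trend, and Grin1, their shared partner, was below it.

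Across the 8 libraries Grin2a and Gria1 followed each other closely. SHR replicates 4 and 2 had the highest levels of both, and WKY replicate 2 and then SHR replicate 3 the lowest of both. Over the 8 libraries Pearson's r of their log2 CPM was 0.925 (exact permutation p = 0.00161, adjusted p = 0.00967 over 6 pairs of members) and Spearman's rho was 0.952 (exact permutation p = 0.00114, adjusted p = 0.00684 over 6 pairs). It was 0.822 without the 2 libraries farthest from the median of Grin2a (SHR replicate 4 and WKY replicate 2, n = 6), and 0.923 without WKY replicate 4. Taken as deviations from the strain means, r was 0.952, so the relation held within the strains. Of 13472 other genes, 24 (0.178%, Gria1 among them) followed Grin2a at least this closely, and 51 (0.379%, Grin2a among them) followed Gria1 so. The samples share one scaling per library, which enters both levels.

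**Figure D3:**
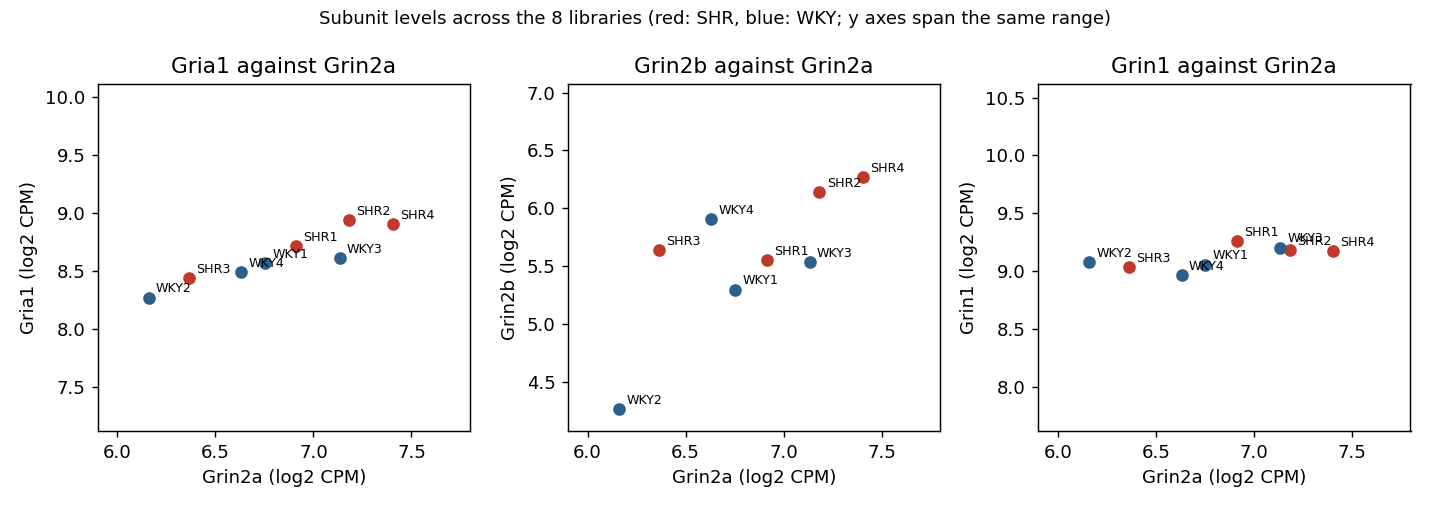
Log2 CPM of Gria1, Grin2b and Grin1 (y axes, of equal span) against that of Grin2a (x axis) in the SHR (red) and WKY (blue) libraries. Gria1 rises with Grin2a through both strains (r = 0.925), the Grin2b relation is weaker without WKY2 and SHR4, the replicates at its ends, and Grin1 stays nearly level.

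The other pairs were less close. Grin2b had r = 0.799 with Gria1 (exact permutation p = 0.0123, adjusted p = 0.0368 over 6 pairs) and 0.750 with Grin2a (exact permutation p = 0.0238, adjusted p = 0.0475 over 6 pairs). SHR replicate 4 and WKY replicate 2 were farthest from the median of the first gene in both pairs. Without these 2 libraries r was lower, at 0.497 and 0.239 (n = 6). Leaving out extremes also narrows the range, so the fall cannot tell whether both relations rest on those libraries. Without WKY replicate 4, r was higher, at 0.890 and 0.819, and as deviations from the strain means it was 0.696 and 0.704. Spearman's rho over 8 libraries was 0.619 for each (exact permutation p = 0.115, adjusted p = 0.159 over 6 pairs). In WKY replicate 4 the GluN2 subunits parted, with Grin2b the highest of the WKY libraries while Grin2a was the third of 4. Grin1 had r = 0.647 with Grin2a (exact permutation p = 0.0868), 0.626 with Gria1 (exact permutation p = 0.101) and 0.184 with Grin2b (exact permutation p = 0.689). Spearman's rho for these pairs was 0.595, 0.643 and -0.024 (exact permutation p = 0.132, 0.0962 and 0.977), and adjusted over 6 pairs no p of Grin1 was below 0.122. Without SHR replicate 1 and WKY replicate 4, the libraries farthest from the median of Grin1, r was 0.831, 0.702 and 0.512 (n = 6). Without WKY replicate 4 alone it was 0.697, 0.638 and 0.415, and as deviations from the strain means 0.578, 0.492 and -0.095.

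The balance between subunits was then compared between the strains as the log2 ratio of 2 transcripts within a library, in which depth and scaling cancel. The ratios are not corrected for transcript length, so their change between libraries can be read but not their level. The ratio of Grin2a to Grin2b, which relates the GluN2 members to each other, was 1.36, 1.04, 0.72 and 1.14 on the log2 scale in SHR replicates 1 to 4. In WKY replicates 1 to 4 it was 1.46, 1.89, 1.599 and 0.73. WKY replicates 1 to 3 were above every SHR library, and WKY replicate 4 was level with the lowest, SHR replicate 3. The SHR libraries averaged 1.06 ± 0.26 and the WKY libraries 1.42 ± 0.50 (SD, n = 4 and 4), a difference of -0.35 (exact permutation test, two-sided p = 0.229, adjusted p = 0.457 over 6 ratios). Without WKY replicate 4 the difference was -0.58 with no overlap (exact permutation test, p = 0.0571, adjusted p = 0.171 over 6 ratios, where 0.0286 is the smallest p that 4 against 3 libraries can give). Without WKY replicate 2 instead, it was -0.20 (exact permutation test, p = 0.429). The difference did not pass in any of these cases.

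**Figure D4:**
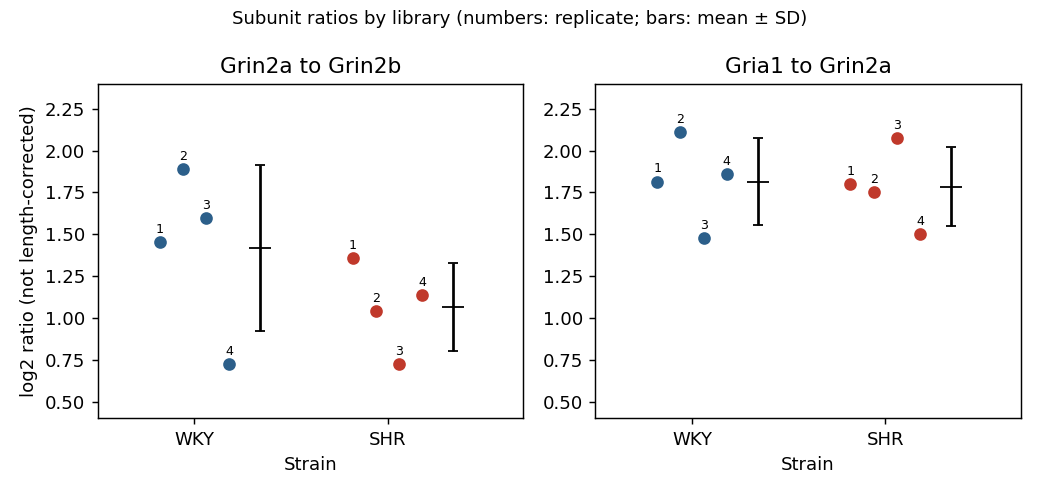
Log2 ratio of Grin2a to Grin2b and of Gria1 to Grin2a (y axis, not corrected for length) in each WKY (blue) and SHR (red) library, with replicate numbers and mean ± SD bars (n = 4). In the first panel WKY replicate 4 (0.73) is lower than WKY replicates 1 to 3 (1.46 to 1.89), and in the second the strains cover nearly the same range.

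Gria1 to Grin2a was the ratio with the smallest strain difference, at 1.78 ± 0.24 for SHR and 1.81 ± 0.26 for WKY (log2, SD, n = 4 and 4; exact permutation test, two-sided p = 0.714, adjusted p = 0.714 over 6 ratios). The ratio was highest in the libraries where both genes were lowest, at 2.08 in SHR replicate 3 and 2.11 in WKY replicate 2, and Grin2a varied more than Gria1. Grin2b to Grin1 differed by 0.56 on the log2 scale, higher in SHR (exact permutation test, p = 0.200, adjusted p = 0.457 over 6 ratios), and Gria1 to Grin2b by -0.38 (p = 0.314, adjusted p = 0.471). Gria1 to Grin1 differed by 0.18 (exact permutation test, p = 0.229, adjusted p = 0.457) and Grin2a to Grin1 by 0.21 (p = 0.514, adjusted p = 0.617). Without WKY replicate 4 the differences in Grin2b to Grin1 and Gria1 to Grin2b were 0.82 and -0.60 (exact permutation test, p = 0.0857 for each, adjusted p = 0.171 over 6 ratios). Leaving out WKY replicate 2 instead moved them the other way, to 0.24 and -0.13 (exact permutation test, p = 0.429 and 0.543). It also lowered the difference in Gria1 to Grin1 to 0.11 and that in Grin2a to Grin1 to 0.041 (exact permutation test, p = 0.371 and 0.914). The Grin2a to Grin1 difference was also smaller without SHR replicate 4 (0.068) and larger without SHR replicate 3 (0.37) or WKY replicate 3 (0.32). The difference in Gria1 to Grin2a, -0.031 over 8 libraries, took either sign on leaving out 1 library, from -0.14 to 0.067.

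Genes most like the mean pattern of the 4 subunits were sought by Pearson's r with the mean of the members' standardised log2 CPM over the 8 libraries. The members did not all share that pattern: r with the mean of the other 3 was 0.931 for Grin2a, 0.947 for Gria1, 0.637 for Grin2b and 0.517 for Grin1. Of 13469 other genes, 95 (0.705%) had r of at least 0.9 with the mean of the 4. The closest was ENSRNOG00000004067 (r = 0.978), at 9.57, 9.71, 9.39 and 9.70 log2 CPM in SHR replicates 1 to 4 and 9.48, 9.32, 9.54 and 9.42 in WKY replicates 1 to 4. The next was ENSRNOG00000018873 (r = 0.968), which ranged from 7.75 log2 CPM in WKY replicate 2 to 7.99 in SHR replicate 2. Neither differed between the strains by the test, with log2 fold changes of 0.15 and 0.079 (edgeR, adjusted p = 0.537 and 0.715). Symbols for both IDs are missing from the files. In both genes, as in Grin2a, Grin2b and Gria1, WKY replicate 2 was the lowest library. The members' mean was also lowest there (-1.395), so this follows from the choice of genes by likeness to that mean. The other glutamate receptor subunits, scaffolds and cell type markers listed for comparison could not be matched to IDs and were not analysed here, so the share of neurons in each library was not measured.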

How the data were processed

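The values analysed were gene-level read counts, not normalised, which the authors deposited both as a matrix and as 8 tables of 1 library each, with the same values. Per the file headers, 4 of the single-library tables carry another number than the sample title, and the titles were used. Per the submitters' processing notes, the tools were cutadapt 1.9, HISAT2 2.0.4 and StringTie 1.3.4d, on the rn6 build. The annotation and strand setting were not given in the sources used here, so overlapping or antisense reads at the members could not be checked.

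Counts were tested with edgeR 4.0.16 (R 4.3.3): quasi-likelihood F test, TMM scaling, default filterByExpr, strain as the only term, Benjamini-Hochberg adjustment over all genes tested, and calls at an adjusted p under 0.05. The standard error is the log2 fold change divided by the square root of F. Log2 CPM carries a prior count of 2. Ratios were compared by exact permutation of the libraries, two-sided (70 assignments, smallest p 0.0286). Alternatives were leaving out each library, a block on the replicate number, robust empirical Bayes, RLE scaling, 2 other filters, limma-voom with limma 3.58.1, and DESeq2 1.42.0.

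The members, lists and tests were chosen with earlier results of these data known. The 4 members were named in full, with the 2 genes most like their mean among those whose log2 CPM averaged 1 or more. The planned pathway and marker lists were not used, because the IDs could not be matched. The motifs were chosen after the Grin1 sequence had been seen. The fit was also tested on simulated counts with these libraries' means and dispersions over 16607 genes: of genes changed 2-fold it recovered 81%, and of genes changed 1.5-fold 30%, with 6 false calls. The changed genes were drawn from those whose log2 CPM averaged 1 or more, and the libraries were simulated as independent.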

Additional observations from a re-analysis of the deposited data

How the results depend on the processing

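All 4 members kept the direction of their difference and stayed short of the threshold in all 23 alternatives each. Their log2 fold changes ranged from 0.016 to 0.14 for Grin1, 0.059 to 0.53 for Grin2a, 0.34 to 1.06 for Grin2b and 0.17 to 0.38 for Gria1, with adjusted p-values from 0.0803 upwards. DESeq2 without WKY replicate 4 was added after the data were seen. The 6 ratios, judged here by unadjusted p, stayed short of the threshold in 9 alternatives each. On leaving out 1 library this says little of stability. With 35 assignments, the exact permutation test passes only at its smallest p, 0.0286. Grin2a to Grin2b without WKY replicate 4 had no overlap and still did not pass (exact permutation test, p = 0.0571). The tenth, an exact sign-flip permutation test of the 4 same-numbered differences, cannot give a p below 0.125 and says nothing of stability. Leaving out 1 library gave differences from -0.58 to -0.20 for Grin2a to Grin2b, 0.041 to 0.37 for Grin2a to Grin1, 0.24 to 0.82 for Grin2b to Grin1, 0.11 to 0.24 for Gria1 to Grin1 and -0.60 to -0.13 for Gria1 to Grin2b. Only Gria1 to Grin2a changed sign, with differences from -0.14 to 0.067 on leaving out 1 library (0.063 without SHR replicate 4 and 0.067 without WKY replicate 2). Over all genes, the 6 calls became 3 with no filter on low counts, 329 with DESeq2, 1162 with DESeq2 without WKY replicate 4, 1 to 458 on leaving out 1 library, and 127 to 662 on leaving out WKY replicate 4 and 1 more; the cause was not tested. With the replicate number as a block there was 1 call over all genes and none among the members. Same-numbered libraries did not deviate together (r of deviations from -0.157 to -0.0034), so the numbers were not taken as pairs. Where leaving out 2 WKY libraries left 2, these were taken to vary like the SHR libraries. In 20 sets (4 members and 6 ratios in each strain, 4 libraries a set), the gap of the highest or lowest library to the next, as a share of the range, passed Dixon's 95% critical value in 0, a test that only a very wide gap can pass with 4 libraries. The self-test recovered few 1.5-fold changes at this size, over genes of all spreads. Grin2b varied more than 95.8% of genes, so that rate is not its own, and a difference of its size can be missed.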
